A study of Mus musculus with 32 samples.

Results

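Macrophage transcripts were examined in mouse gastrocnemius, a mixed calf muscle, as 9 listed genes of the 55487 gene identifiers counted: Cd68, Adgre1, Csf1r, Mrc1, Cd163, C1qa, C1qb, C1qc and Lyz2. The genes were taken from a list of macrophage genes that was chosen with earlier results of these data known. Each was found in the table under a single symbol. All 9 passed the filter on low counts. The question set for them was whether they move together across the 6 groups, as a change in the number of macrophages alone would require. A muscle with fewer macrophages and a muscle whose macrophages hold less RNA per cell cannot be told apart in these whole-muscle libraries.

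The 32 libraries came from young male mice killed 7 or 28 days after surgery. Sham mice had control surgery and received vehicle (n = 4 at each day). Injured mice had a complete spinal cord injury (SCI) and received vehicle (n = 6 at each day) or boldine (n = 6 at each day), a plant alkaloid described as a blocker of connexin hemichannels. The sources used here give no strain, exact age or boldine dose, and nothing in the labels says that libraries share an animal. The groups carry no transgene or deleted gene according to the labels. Each library was made from a piece of muscle cut to hold both heads, so every cell type of the muscle contributed RNA.

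Library totals ran from 9935424 to 14132960 counts. The 5 muscle fibre genes listed, such as Acta1 and Ckm, summed to between 35893 and 127491 CPM (read counts scaled to the TMM-adjusted library size) in every library, which marks the tissue as muscle. The 9 macrophage genes summed to between 40.1 and 107.9 CPM. Hipk2 parted the libraries into sets that no label names: it lay between 4.98 and 21.8 CPM in 8 libraries (all 4 sham and 4 of 6 SCI vehicle libraries at 28 days) and between 47.0 and 118.7 CPM in the other 24. All 6 boldine libraries at 28 days were in the second set, so boldine and set cannot be told apart against sham at 28 days, and comparisons between days run across the sets. The column for boldine 28-day library 6 carries a code of the SCI vehicle series although its title and treatment label say boldine. Leaving that library out gave no call among the 9 genes in either boldine comparison at 28 days. Boldine 28-day library 5 stood above the other libraries of its group for several of the 9 genes. The boldine comparison at 28 days is given with and without it, as is the range of correlations among the members other than Cd68.

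Macrophages of resting muscle live between the fibres and are kept alive by signals through the receptor that Csf1r encodes. After muscle damage, monocytes enter from the blood, and macrophages clear debris and then support repair. Macrophages are also a main tissue source of C1q, the recognition molecule that starts the classical complement pathway and that binds to antibody complexes and debris. The 9 genes cover these roles. Csf1r encodes the growth factor receptor that defines the lineage, and Adgre1 encodes F4/80, a surface marker of mature mouse macrophages. Mrc1 encodes the mannose receptor CD206 and Cd163 the scavenger receptor for haemoglobin bound to haptoglobin, both typical of resident and repair-phase macrophages. Cd68 encodes macrosialin, a glycoprotein of late endosomes and lysosomes. Lyz2 encodes lysozyme 2, and C1qa, C1qb and C1qc encode the A, B and C chains of C1q.

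With TMM scaling only Cd68 of the 9 genes passed the test after injury, whereas with library totals 4 of 9 were called in SCI boldine against sham at 7 days. Under library totals 7787 of all 14955 genes were called higher in that comparison and 1187 lower, so 4 of 9 does not set these genes apart. At 7 days after injury Cd68 rose from 1.27 ± 0.687 CPM in sham (SD, n = 4) to 4.30 ± 2.41 CPM in SCI vehicle (n = 6), while none of the other 8 genes passed the test. At 28 days none of the 9 passed it, and none passed it between boldine and vehicle at either day, where almost no gene did. Within groups, 20 of the 28 pairs among the other 8 genes correlated from library to library, the C1q chains and Lyz2 among them, and Cd68 correlated with 1 of the 8. How often pairs of other genes do so in these libraries was not counted. The gene that lies just upstream of Cd68 and is read on the same strand, Eif4a1, rose by a similar factor at 7 days, and in the injured 7-day libraries Cd68 followed it (r = 0.90). That comparison was chosen after the values were seen, and how many other genes follow Cd68 as closely there was not counted. Among the SCI vehicle libraries at 7 days, those with the largest TMM factors also held the most Cd68. Whether both genes follow a shift of the whole library was not tested. Over all 32 libraries Eif4a1 had rank 343 among 8990 genes compared for likeness to Cd68.

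**Figure D1:**
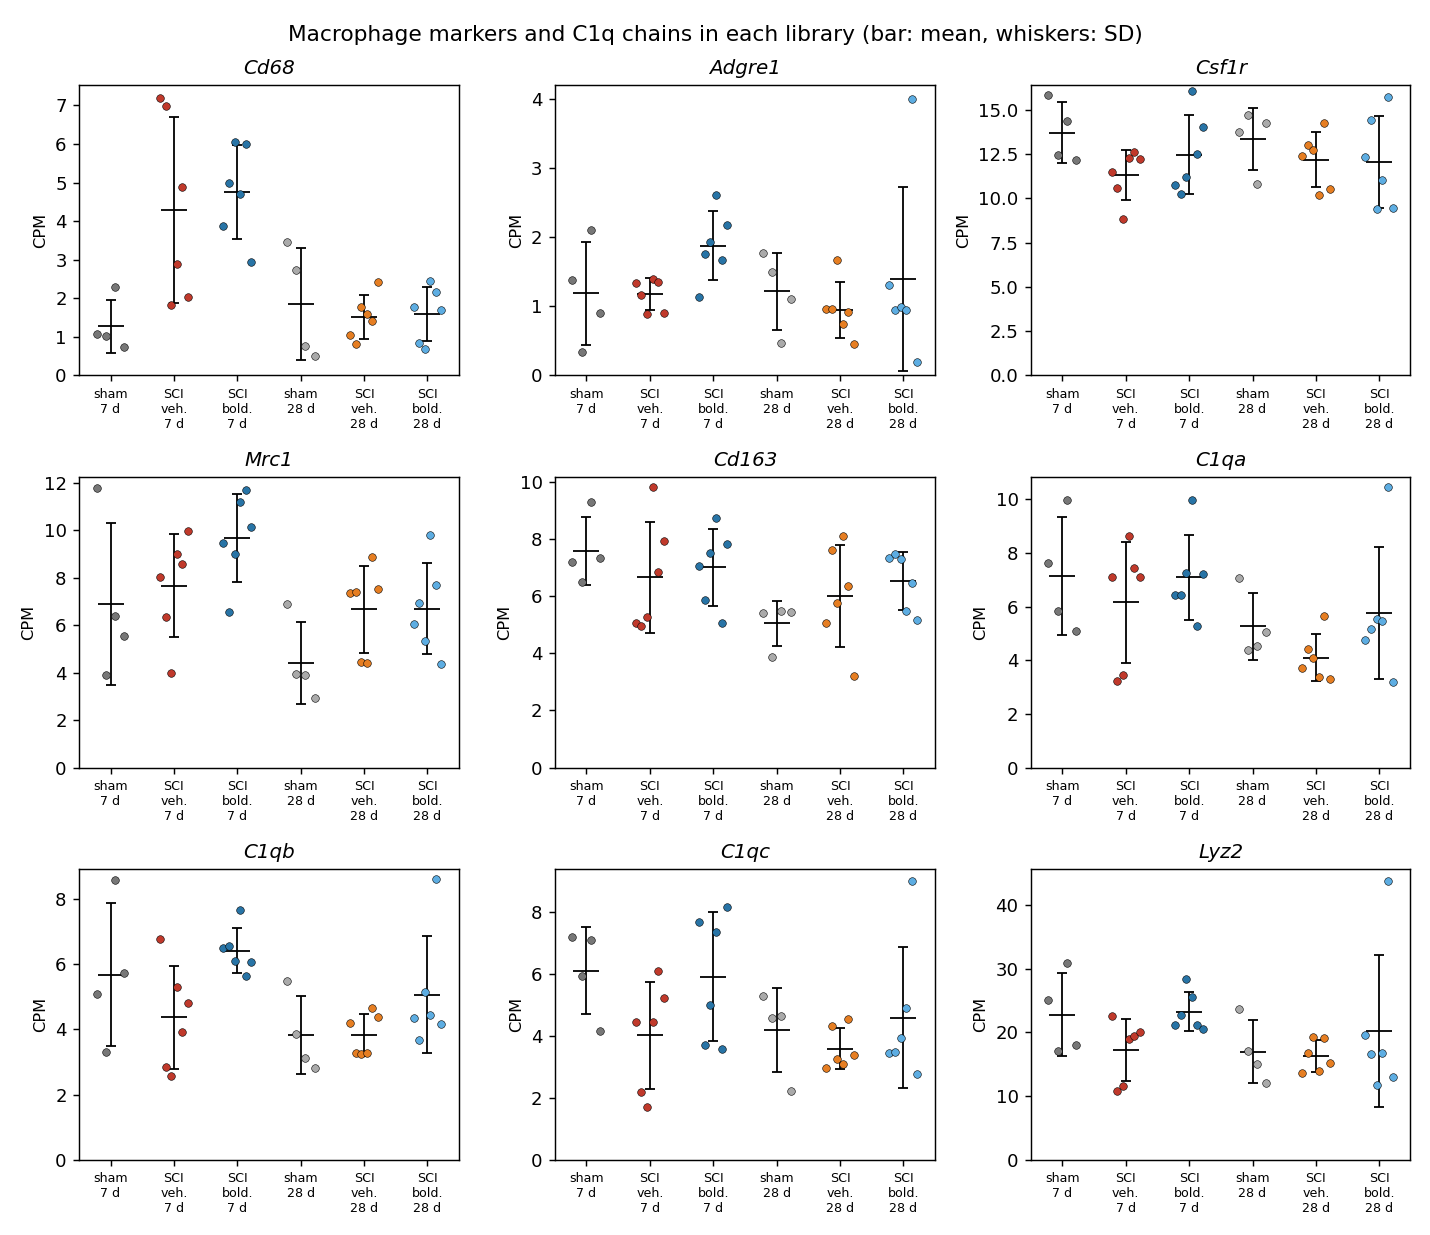
Level of each of the 9 genes in CPM (vertical axes, linear and starting at 0) in the 6 groups (horizontal axes); each point is a library, the bar is the group mean and the whiskers are the SD. Cd68 stands higher in the injured groups at 7 days (means 4.30 and 4.76 CPM against 1.27 in sham), and a single boldine library at 28 days stands above its group for Adgre1, the C1q chains and Lyz2.

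Cd68 lies on chromosome 11 at 69664213 to 69666153, minus strand, in the mm10 build (GENCODE M21, identifier ENSMUSG00000018774.13), with an exon length of 1257 bases. Its 250 bases before the RefSeq start are shown because Cd68 is the member that changed and because this stretch fills part of the 782 bases between the annotated end of Eif4a1 and the start of Cd68. Capitals mark GAGGAA, the core letters read by PU.1 (the macrophage transcription factor encoded by Spi1), and TGANTCA, the letters read by AP-1 factors, each searched on both strands.
Cd68, chr11:69666171-69666420, minus strand (RefSeq, GRCm38.p6): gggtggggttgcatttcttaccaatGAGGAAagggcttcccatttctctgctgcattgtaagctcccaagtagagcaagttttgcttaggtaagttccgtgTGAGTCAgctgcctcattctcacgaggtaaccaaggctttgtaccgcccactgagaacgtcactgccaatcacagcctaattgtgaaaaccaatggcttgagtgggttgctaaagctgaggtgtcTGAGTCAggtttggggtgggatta
The window held 1 GAGGAA on the gene strand and 2 TGANTCA. Of 32851 RefSeq promoter windows of the same length, 23.3% held GAGGAA on either strand and 6.75% held TGANTCA, so neither motif is rare, and a match is a run of letters and no measured binding.

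The Cd68 rise at 7 days was read from few counts. The 4 sham libraries held 1.06, 1.03, 2.28 and 0.727 CPM, from 8 to 26 counts each. The 6 SCI vehicle libraries held between 1.84 and 7.19 CPM with a median of 3.88 CPM, from 25 to 108 counts each. The groups overlapped, since 4 of 6 SCI vehicle libraries stood above the highest sham library and all 6 above the sham median. The log2 fold change was 1.74 ± 0.46 (SE; edgeR quasi-likelihood test, adjusted p = 0.0024). Leaving out each library of either group in turn gave values between 1.53 and 2.20, with adjusted p between 0.00074 and 0.015, and Cd68 remained called each time. The share of all 14955 genes tested that were called in this comparison was 44.6%, of which 21.5% of genes tested were higher and 23.1% lower, so 1 called gene of 9 is a smaller share than that of all genes.

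SCI boldine libraries at 7 days held between 2.93 and 6.04 CPM of Cd68 with a median of 4.85 (mean 4.76 ± 1.21, n = 6). All 6 stood above all 4 sham libraries. Against the same sham libraries, which both injured groups share as controls, the log2 fold change was 1.88 ± 0.46 (edgeR, adjusted p = 0.0011), in a comparison where 44.2% of genes were called. Against SCI vehicle it was 0.14 ± 0.34 (edgeR, adjusted p = 0.94), in a comparison where 0.0334% of genes were called. Boldine and vehicle libraries overlapped, and the interval around that small difference is wide.

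At 28 days the groups did not differ detectably in Cd68. The 4 sham libraries held 3.45, 2.73, 0.758 and 0.504 CPM, a wide spread for a group of 4. SCI vehicle libraries held between 0.803 and 2.41 CPM and SCI boldine libraries between 0.692 and 2.45 CPM. No group stood apart from the others. The SCI effect on Cd68 at 28 days was −0.33 ± 0.46 (log2, edgeR, adjusted p = 0.74), in a comparison where 8.93% of genes were called (4.05% higher and 4.88% lower). The effect at 28 days was lower than that at 7 days by 2.07 ± 0.65 on the log2 scale (log2 difference −2.07, edgeR test of the difference, adjusted p = 0.019), where 23.9% of genes were called for such a difference. That difference rested on the sham libraries at 28 days: without sham 28-day library 1 it was −1.59 (adjusted p = 0.097), and without sham 28-day library 2 it was −1.83 (adjusted p = 0.058). By limma voom with sample quality weights it was −1.58 (adjusted p = 0.12). With a term for the library sets it was −2.28 (adjusted p = 0.018).

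Eif4a1, which encodes an RNA helicase of translation initiation, lies on the same strand at 69666936 to 69672423 on chromosome 11 and ends 782 bases before Cd68 begins. It was counted 55040 times over the 32 libraries, and Cd68 1131 times. The 4 sham libraries at 7 days held 76.9, 73.4, 73.9 and 72.0 CPM of Eif4a1. SCI vehicle libraries at 7 days held between 151.8 and 279.8 CPM (median 194.6) and SCI boldine libraries between 169.97 and 249.9 CPM (median 210.8). No injured library came near the sham level. The log2 fold changes of Eif4a1 against sham were 1.45 ± 0.13 for SCI vehicle (edgeR, adjusted p = 1.6e-10) and 1.49 ± 0.13 for SCI boldine (edgeR, adjusted p = 7.4e-11). At 28 days the SCI vehicle value was 0.15 ± 0.13 (edgeR, adjusted p = 0.52).

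Within the 12 injured 7-day libraries, with the mean of each treatment group removed, Cd68 and Eif4a1 rose and fell together. Pearson's r was 0.90 (permutation p = 0.00091, adjusted p = 0.0036) and Spearman's rho 0.92 (permutation p = 0.00083, adjusted p = 0.0033), with 100000 permutations within groups and adjustment over 8 relations. Without the 2 libraries whose Cd68 was farthest from the median, r was 0.94. Over all 16 libraries at 7 days r was 0.81, over the 16 at 28 days −0.053, and over all 32 it was 0.45 (permutation adjusted p = 0.055). Mpdu1, which lies 1570 bases beyond the other end of Cd68 on the same strand, gave r = 0.16 in the 12 injured 7-day libraries. Scaled to Eif4a1, Cd68 differed between SCI vehicle and sham at 7 days by 0.22 ± 0.41 on the log2 scale (edgeR, adjusted p = 0.61). Because Eif4a1 rose by a similar factor, a small value was fixed in advance. Scaling to any gene with a like rise would give one too, so the value cannot link the 2 genes. These comparisons with neighbouring genes were chosen after the values were seen. How many other genes follow Cd68 as closely in the 12 injured 7-day libraries was not counted. The TMM factors of the libraries differed too. SCI vehicle libraries 1, 2 and 5 had factors of 1.28, 1.30 and 1.32 and held 7.19, 6.97 and 4.87 CPM of Cd68. SCI vehicle libraries 3, 4 and 6 had 1.04, 1.08 and 1.16 and held 1.84, 2.88 and 2.02 CPM. SCI boldine library 3 had 1.36 and held 6.04 CPM. SCI boldine libraries 1 and 6 had 1.12 and 1.16 and held 3.89 and 2.93 CPM. Whether both genes follow a shift of the whole library was not tested. Whether reads of Eif4a1 transcripts that run past their annotated end were counted as Cd68 was not tested.

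**Figure D2:**
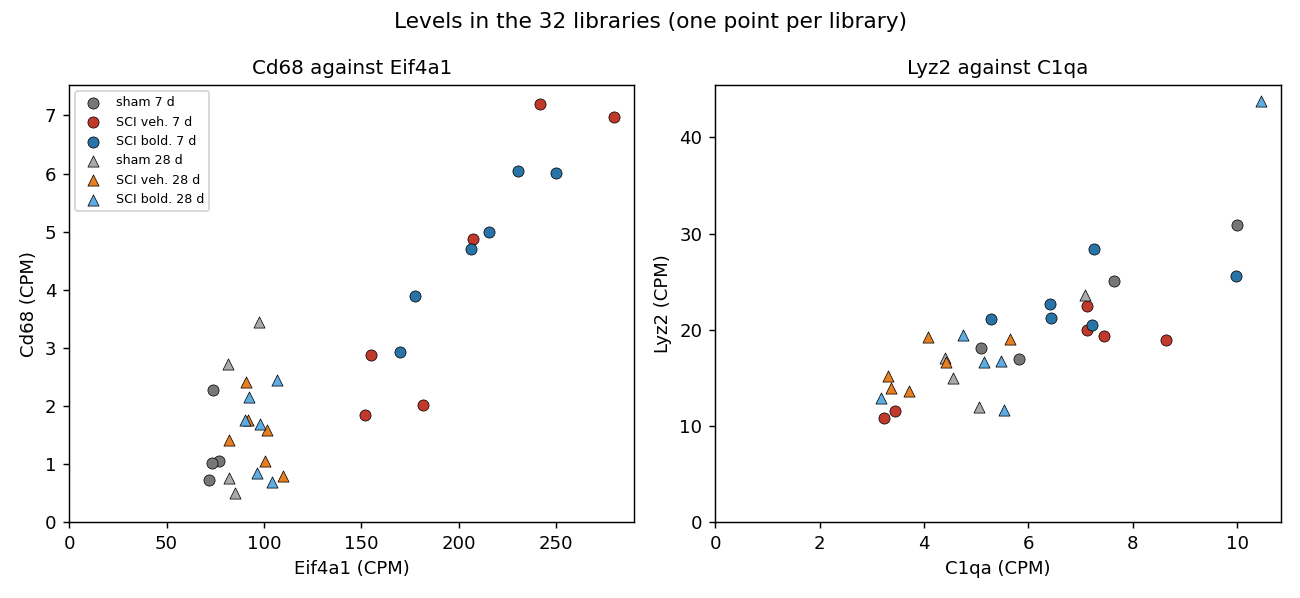
Each point is a library; left, Cd68 against its upstream neighbour Eif4a1, right, Lyz2 against C1qa, all in CPM on linear axes, with circles for 7 days and triangles for 28 days. Cd68 follows Eif4a1 among the injured 7-day libraries (r = 0.90 within groups) and not at 28 days (r = −0.053), while Lyz2 follows C1qa over all groups.

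Csf1r, the receptor that defines the lineage, had the smallest SE of the 9. It spans 61100598 to 61132149 on chromosome 18, plus strand. The 4 sham libraries at 7 days held 15.8, 12.4, 14.4 and 12.2 CPM. SCI vehicle libraries at 7 days held between 8.82 and 12.6 CPM (median 11.8) and SCI boldine libraries between 10.3 and 16.04 (median 11.8). SCI vehicle libraries 1, 2 and 3 and boldine libraries 1, 2 and 3 lay below the lowest sham library, and boldine library 4 above the highest. All 6 SCI vehicle libraries were below the sham median. The log2 fold change of SCI vehicle was −0.28 ± 0.14 (edgeR, adjusted p = 0.12). At 28 days it was −0.13 ± 0.14 (edgeR, adjusted p = 0.64). The last exons of Csf1r overlap those of Hmgxb3 on the opposite strand by 873 bases, and the library kit does not keep the strand, so part of the counts cannot be assigned. Hmgxb3 fell by 0.24 at 7 days (log2 fold change −0.24 ± 0.091, edgeR, adjusted p = 0.030).

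Adgre1, the F4/80 gene, was counted least of the 9 per kilobase of exon. Sham libraries at 7 days held 1.38, 0.343, 2.10 and 0.908 CPM, and SCI vehicle libraries held between 0.882 and 1.39 (median 1.25). The SCI vehicle libraries lay inside the sham range. The log2 fold change was −0.044 ± 0.46 (edgeR, adjusted p = 0.95). SCI boldine libraries at 7 days held between 1.13 and 2.60 CPM (median 1.84), and 5 of 6 stood above the highest SCI vehicle library. That difference was 0.68 ± 0.38 on the log2 scale and did not pass the test (edgeR, adjusted p = 0.60). With 3 counts in the lowest sham library, Adgre1 at this depth could show large changes only.

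Mrc1 and Cd163, the receptors typical of resident and repair-phase macrophages, did not pass the test at either day. Sham libraries held 11.8, 3.88, 6.40 and 5.54 CPM of Mrc1 at 7 days and 6.90, 3.96, 3.88 and 2.93 at 28 days. SCI vehicle libraries held between 3.97 and 9.97 CPM at 7 days (median 8.32) and between 4.39 and 8.89 at 28 days (median 7.37). At 28 days 4 of 6 SCI vehicle libraries stood above the highest sham library. The log2 fold change of Mrc1 was 0.15 ± 0.27 at 7 days (edgeR, adjusted p = 0.69) and 0.58 ± 0.29 at 28 days (edgeR, unadjusted p = 0.049, adjusted p = 0.22). Mrc1 was the only member at an unadjusted p under 0.05 at 28 days, where edgeR, DESeq2 and limma voom each called 0 of 9. Within the low Hipk2 set, which holds all 4 sham libraries, SCI vehicle libraries held between 4.39 and 7.39 CPM of Mrc1, and the 2 in the other set 7.50 and 8.89 CPM. With a term for the sets the Mrc1 value was 0.41 ± 0.31 (edgeR, adjusted p = 0.50).

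Cd163 lay between 6.51 and 9.29 CPM in sham and between 4.97 and 9.84 in SCI vehicle at 7 days (log2 fold change −0.20 ± 0.20, edgeR, adjusted p = 0.44). At 28 days the values were between 3.87 and 5.49 CPM in sham and between 3.22 and 8.13 in SCI vehicle (0.26 ± 0.21, edgeR, adjusted p = 0.52). The ranges overlapped at both days.

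C1qa, C1qc and C1qb stand side by side on chromosome 4 and are read from the same strand, with 2851 bases between C1qa and C1qc and 3616 between C1qc and C1qb. C1qa spans 136895917 to 136898803, C1qc 136889804 to 136893065 and C1qb 136880129 to 136886187. The stretches before the RefSeq starts of C1qb and C1qc are shown because these neighbours moved together from library to library; capitals mark GAGGAA or, on the other strand, TTCCTC.
C1qb, chr4:136886201-136886450, minus strand (RefSeq, GRCm38.p6): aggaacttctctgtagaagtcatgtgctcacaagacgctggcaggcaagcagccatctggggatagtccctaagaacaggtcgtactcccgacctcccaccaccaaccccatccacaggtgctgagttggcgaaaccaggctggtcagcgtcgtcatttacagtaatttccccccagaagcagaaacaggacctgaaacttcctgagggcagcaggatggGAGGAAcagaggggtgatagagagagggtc
C1qc, chr4:136892915-136893164, minus strand (RefSeq, GRCm38.p6): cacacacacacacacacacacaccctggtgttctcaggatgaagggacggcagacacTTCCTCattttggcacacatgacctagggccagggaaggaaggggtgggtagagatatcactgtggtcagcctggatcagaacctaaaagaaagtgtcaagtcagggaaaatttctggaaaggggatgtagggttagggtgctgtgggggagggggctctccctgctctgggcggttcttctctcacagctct
C1qb held 1 GAGGAA on the gene strand and C1qc 1 on the other strand, and neither window held TGANTCA. Of the windows not shown, those of Cd163 and Lyz2 held neither motif, and that of Mrc1 held 3 GAGGAA on the other strand and no TGANTCA. The C1qc window lies partly inside the GENCODE span given above, because the RefSeq start lies further in.

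No chain of C1q passed the test after injury. Sham libraries at 7 days held 7.64, 5.82, 9.99 and 5.09 CPM of C1qa, and SCI vehicle libraries between 3.23 and 8.64 (median 7.12). The groups overlapped, and SCI vehicle libraries 2 and 3 lay below the lowest sham library. The log2 fold change was −0.22 ± 0.26 for C1qa (edgeR, adjusted p = 0.52). It was −0.40 ± 0.25 for C1qb (edgeR, adjusted p = 0.20). It was −0.60 ± 0.31 for C1qc (edgeR, adjusted p = 0.12), whose 6 SCI vehicle libraries all lay below the sham median of 6.52 CPM. At 28 days the values were −0.37 ± 0.28 for C1qa, −0.0052 ± 0.26 for C1qb and −0.23 ± 0.33 for C1qc, with adjusted p in edgeR of 0.48, 0.99 and 0.75.

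Lyz2, the most abundant member, held 25.1, 17.02, 30.9 and 18.1 CPM in sham at 7 days and between 10.8 and 22.5 CPM in SCI vehicle (median 19.2). Only 1 of 6 SCI vehicle libraries stood above the sham median. The log2 fold change was −0.41 ± 0.26 (edgeR, adjusted p = 0.20), and at 28 days −0.057 ± 0.26 (edgeR, adjusted p = 0.93). Lyz2 and its neighbour and copy Lyz1 share 15.4% of 50-base windows of the Lyz2 transcript, so some reads can match both. Lyz1 held at most 6.16 CPM in any library.

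Per kilobase of exon, the scale on which levels of different genes can be compared, Lyz2 led in sham at 7 days with 17.3 ± 4.92 CPM per kilobase (n = 4). C1qa followed at 6.86 ± 2.10, C1qb at 5.22 ± 2.02, C1qc at 3.16 ± 0.731 and Csf1r at 2.37 ± 0.297. Cd163 stood at 1.39 ± 0.218, Mrc1 at 1.08 ± 0.536, Cd68 at 1.01 ± 0.547 and Adgre1 at 0.366 ± 0.23 CPM per kilobase. The mean ± SD ranges of neighbours in this order overlapped except between Lyz2 and C1qa and between Csf1r and Cd163. In SCI vehicle at 7 days Lyz2, C1qa and C1qb kept the first places, and Cd68 stood next at 3.42 ± 1.92 CPM per kilobase (n = 6), rank 4 in place of rank 8. At 28 days Cd68 had rank 6 in both sham and SCI vehicle.

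As a list, the 9 genes had a median log2 fold change of −0.22 in SCI vehicle at 7 days, beside −0.022 over all 14955 genes, with 1 called higher and 0 lower. Scaling libraries by their totals in place of TMM moved the median of all genes to 0.37 and that of the 9 genes to 0.18, and turned the direction of Adgre1, Csf1r, Cd163, C1qa and C1qb, none of them called under either scaling. The split of calls over all genes moved from 3218 higher and 3451 lower to 7107 higher and 1362 lower. The median of the 9 at 28 days was −0.13, beside 0 over all genes.

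Whether members moved by different factors was asked by setting each library to its own Csf1r count, which replaces the choice of scaling by a choice of reference gene. In that fit 33.4% of the 14954 other genes were called at 7 days. Of the 8 other members Cd68 alone was called, at 2.02 ± 0.43 (log2 difference from Csf1r, edgeR, adjusted p = 0.00028). The other 7 lay between −0.36 for C1qc (± 0.27, adjusted p = 0.31) and 0.43 for Mrc1 (± 0.24, adjusted p = 0.15), with C1qa at 0.041 ± 0.22 (edgeR, adjusted p = 0.90). Eif4a1 rose against Csf1r by 1.73 ± 0.21 (edgeR, adjusted p = 6.7e-09). Without sham 7-day library 1, Mrc1 was called as well, at 0.71 (edgeR, adjusted p = 0.037). Set to Adgre1, a reference with few counts, Cd68 stood at 1.47 and was not called (edgeR, adjusted p = 0.28). The difference of the Cd68 effect between days, set to Csf1r, was −2.16 ± 0.61 (28 minus 7 days, edgeR, adjusted p = 0.018), where 8.29% of genes were called.

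At 28 days 2.50% of genes were called against Csf1r and 0 of the 8 members by edgeR, of which 1, Mrc1, had an unadjusted p under 0.05 (0.71 ± 0.25, unadjusted p = 0.0060, adjusted p = 0.13). Without sham 28-day library 1 Mrc1 was called, at 0.98 (edgeR, adjusted p = 0.047). In SCI boldine against the same sham libraries Mrc1 stood above Csf1r by 0.66 ± 0.24 at 7 days (edgeR, adjusted p = 0.029), where 28.4% of genes were called and Cd68 was the other member called. For Mrc1 at 28 days it was 0.75 ± 0.25 (edgeR, adjusted p = 0.050), where 7.79% of genes and no other member were called. Between SCI boldine and SCI vehicle 0 of the 8 were called by edgeR at either day, where 0.0134% of genes were called at 7 days and 0% at 28 days, and 1 at each day had an unadjusted p under 0.05 (C1qb at 7 days, 0.46 ± 0.22, and C1qa at 28 days, 0.50 ± 0.21).

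**Figure D3:**
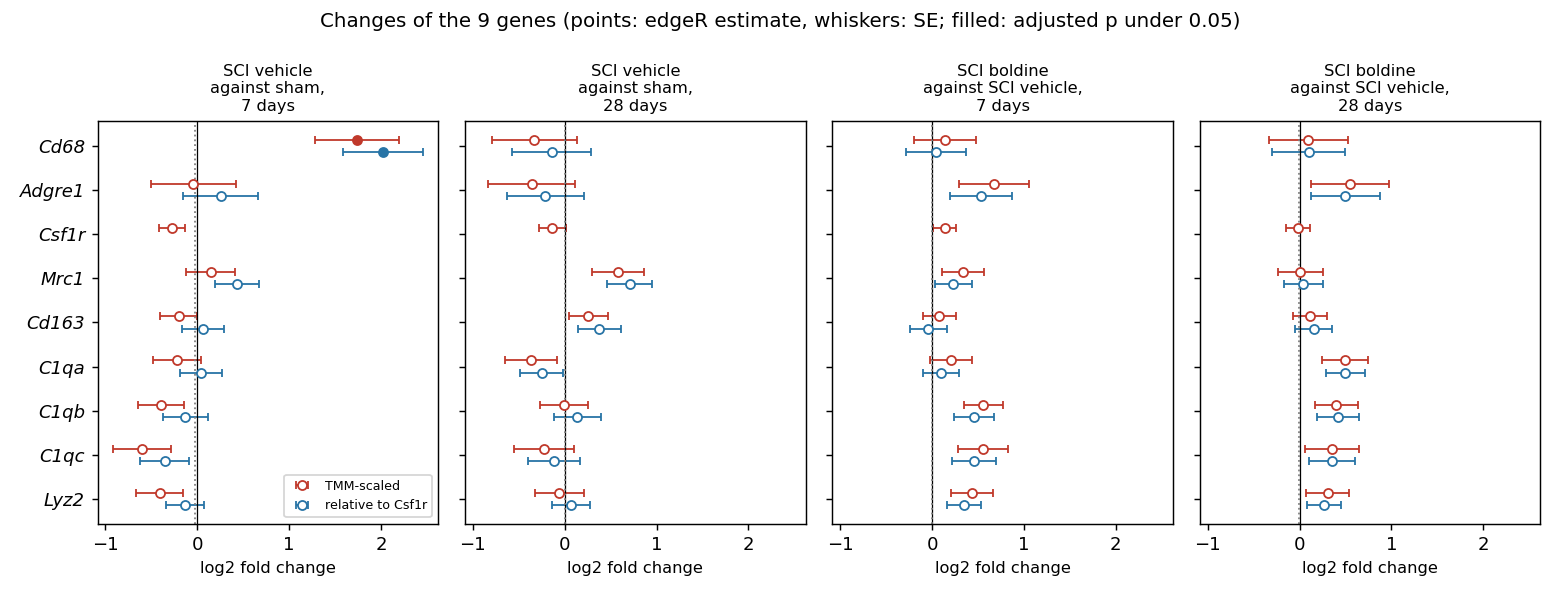
Log2 fold change (horizontal axes) of the 9 genes in 4 comparisons, from libraries scaled by TMM (red) and from libraries set to their own Csf1r count (blue); points are edgeR estimates, whiskers are SE, filled points have an adjusted p under 0.05 and the dotted line is the median of all genes. Only the points of Cd68 in SCI vehicle against sham at 7 days are filled, at 1.74 and 2.02.

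No difference between boldine and vehicle passed the test for any of the 9 genes. At 7 days all 9 log2 differences between SCI boldine and SCI vehicle were above 0, with a median of 0.34 beside −0.0040 over all genes. The counts of calls were 0 of 9 by edgeR, DESeq2 and limma voom, beside 0.0334% of all genes by edgeR, and 1, C1qb, had an unadjusted p under 0.05. C1qb lay between 2.57 and 6.77 CPM in SCI vehicle (median 4.37) and between 5.65 and 7.66 in SCI boldine (median 6.30). All 6 boldine libraries stood above the vehicle median. The difference was 0.56 ± 0.22 (edgeR, unadjusted p = 0.014, adjusted p = 0.36). C1qc differed by 0.56 ± 0.28 (edgeR, adjusted p = 0.53), Lyz2 by 0.44 ± 0.23 (edgeR, adjusted p = 0.56) and Mrc1 by 0.34 ± 0.23 (edgeR, adjusted p = 0.68). C1qa differed by 0.21 ± 0.23, Csf1r by 0.14 ± 0.13 and Cd163 by 0.080 ± 0.18.

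Since 21 of the 36 pairs of these genes correlate across libraries, a shared sign is not 9 separate observations. Other markers lay in the same direction at 7 days, none of them called. All 15 measured of 20 other macrophage genes (median 0.37), all 8 fibro-adipogenic genes (median 0.36) and all 7 Schwann cell genes (median 0.19) were higher in boldine. So were all 5 adipocyte genes (median 1.35), all 5 erythrocyte genes (median 0.80) and all 3 measured of 10 inflammatory monocyte genes (median 0.25). Other lists were mixed or went the other way. Of these, 13 of 15 complement, 6 of 7 lipid-laden macrophage, 6 of 8 resident macrophage, 6 of 9 endothelial and 5 of 7 ligand genes were higher. The values were 3 of 4 for mast cell, 2 of 3 for neutrophil, 9 of 20 for lysosome, 1 of 5 for muscle fibre and 0 of 1 for dendritic cell genes. Their part in the result was not tested.

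The boldine comparison at 28 days called 0.0201% of genes and 0 of 9 members by edgeR, DESeq2 and limma voom, and no member had an unadjusted p under 0.05. The median of the 9 was 0.31, beside −0.0077 over all genes. C1qa lay between 3.30 and 5.66 CPM in SCI vehicle (median 3.90) and between 3.18 and 10.5 in SCI boldine (median 5.31), a difference of 0.49 ± 0.25 (edgeR, adjusted p = 0.55). Without boldine library 5 the median of the 9 was −0.0018, the C1qa difference was 0.24 (edgeR, adjusted p = 0.86), the C1qc difference moved from 0.35 to 0.047, and Adgre1 and Lyz2 moved from 0.55 and 0.31 to −0.11 and −0.071. The boldine effect did not differ detectably between the days for any of the 9: edgeR, DESeq2 and limma voom called 0, none had an unadjusted p under 0.05, and 0.00669% of genes were called. Against sham at 28 days, where 18.1% of genes were called, SCI boldine gave 0 calls among the 9 by edgeR, DESeq2 and limma voom, and 1, Mrc1, at an unadjusted p under 0.05 (0.59 ± 0.29, adjusted p = 0.15).

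Within groups, many of the members other than Cd68 moved together, Cd163 in fewer pairs than the rest. With group means removed, 21 of 36 pairs of the 9 genes correlated over the 32 libraries (permutation test within groups, adjusted p under 0.05 over the 36 pairs), and 20 by Spearman's rho. The share of pairs of other genes that pass was not counted, so these counts cannot be called particular to macrophage genes. C1qa and C1qc gave r = 0.80 (rho = 0.76, permutation p = 1e-05, the smallest that the permutations can give, adjusted p = 0.00036). C1qa and C1qb gave r = 0.74 (rho = 0.65, permutation adjusted p = 0.00072), and C1qb and C1qc r = 0.62 (rho = 0.57, permutation adjusted p = 0.0036). Without the 2 libraries farthest from the median, r between the chains lay between 0.54 and 0.73.

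The closest pair of all was C1qa with Lyz2, at r = 0.82 (rho = 0.76, permutation adjusted p = 0.00045), and r = 0.74 without the 2 farthest libraries. These genes are on different chromosomes. Csf1r correlated with C1qa at r = 0.68 (rho = 0.66, permutation adjusted p = 0.00045) and with Adgre1 at r = 0.68 (rho = 0.68, permutation adjusted p = 0.00045). Of its pairs with the other 7, Cd163 passed only with C1qa (r = 0.53, rho = 0.55, permutation adjusted p = 0.0077). With Cd163 the values at 7 days lay between 0.40 and 0.76, and at 28 days between −0.22 and 0.29. In the 24 libraries of the high Hipk2 set they lay between 0.32 and 0.66, and in the 8 of the low set between −0.50 and 0.21. Whether Cd163 correlates less than the others was not tested as a difference.

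Cd68 gave r between −0.38 and 0.45 with the other 8 and passed with Lyz2 alone (r = 0.45, rho = 0.50, permutation adjusted p = 0.046; r = 0.36 without the 2 farthest libraries). The 28 pairs without Cd68 lay between 0.12 and 0.82, and 20 of them passed. Whether Cd68 correlates less than the others was not tested as a difference. Without boldine 28-day library 5 the 28 pairs lay between 0.12 and 0.76, and those that pass were not counted. In the 24 libraries of the high Hipk2 set they lay between 0.32 and 0.86, and in the 8 of the low set, too few for a firm value, between −0.50 and 0.83. The counts of pairs that passed were 10 among the 16 libraries at 7 days and 6 among the 16 at 28 days, each with fewer libraries.

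**Figure D4:**
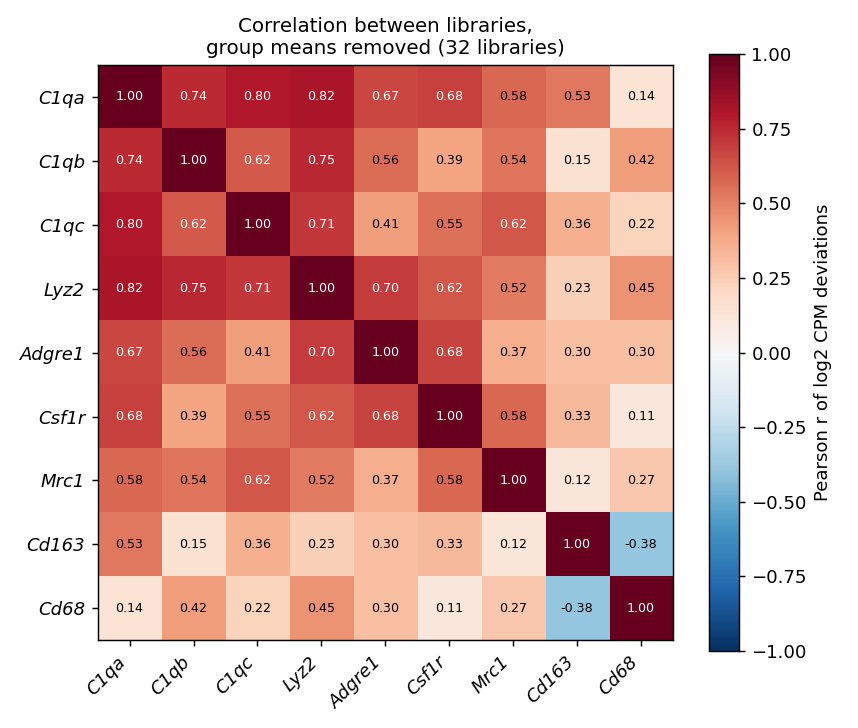
Pearson's r between the 9 genes over 32 libraries, from log2 CPM with the group means removed; red is positive and blue negative. The C1q chains, Lyz2, Adgre1, Csf1r and Mrc1 form a positive block, and the row of Cd68 lies between −0.38 and 0.45.

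With the 9 genes themselves left out, the genes most like C1qa over the 32 libraries, among 8990 genes of at least 5 CPM, were C3 (r = 0.77), the central component of complement, H2-Aa (0.76) and Cd74 (0.76) of antigen presentation, Stab1 (0.70), a scavenger receptor of resident macrophages and sinusoidal endothelium, and F13a1 (0.66), a coagulation factor subunit made by resident macrophages. Boldine 28-day library 5 stood highest in its group for C1qa, and these values were not computed without it. In that group C3 reached 78.0 CPM beside a median of 22.6, and Cd74 reached 26.0 beside a median of 12.6. The genes most like Cd68 were Fam192a (0.72), Thoc5 (0.70), a subunit of an mRNA export complex, Cttn (0.67), which encodes cortactin, Med20 (0.66), a Mediator subunit, and Tubb2a (0.65), a beta-tubulin. The values are descriptions over libraries that share depth and scaling. No macrophage marker was among the 5 most like Cd68, but the search left out the 9 members and genes under 5 CPM. That floor removed macrophage genes with few counts, such as Laptm5, Ctss and Mpeg1 (1179, 1182 and 982 counts in all). The absence was thus set in part by the filter and says little about Cd68. Eif4a1 had rank 343 for Cd68 over all 32 libraries (r = 0.45).

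Of 20 further macrophage genes 15 were measured, and at 7 days 0 rose and 5 fell, with a median of −0.61. Over all genes 21.5% were called higher and 23.1% lower in this comparison, and each list count at 7 days is to be read beside those shares. Those that fell were 4 genes of antigen presentation by class II molecules, Cd74, H2-Ab1, H2-Eb1 and H2-Aa, and the Fc receptor gene Fcgr3. Cd74, the class II invariant chain, went from 16.6 ± 5.94 CPM (n = 4) to 9.12 ± 1.79 CPM (n = 6), a log2 fold change of −0.87 ± 0.22 (edgeR, adjusted p = 0.0018). Fcgr3 fell by 1.17 ± 0.36 on the log2 scale (edgeR, adjusted p = 0.0087). With library totals in place of TMM 0 of the 15 were called in either direction, with a median of −0.21 beside 0.37 over all genes. At 28 days 0 of 15 were called by edgeR, with a median of −0.077. Over all genes 4.05% were called higher and 4.88% lower at 28 days, and each list count at 28 days is to be read beside those shares. With library totals 298 of 14955 genes were called higher at 28 days and 1256 lower.

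Of 10 genes of resident macrophages 8 were measured: Gas6 rose and Maf and Stab1 fell at 7 days. Gas6, a ligand of the phagocytic receptor Mertk that other muscle cells also make, rose by 0.93 ± 0.11 (log2, edgeR, adjusted p = 4.8e-08). Maf fell by 0.66 ± 0.18 (edgeR, adjusted p = 0.0032) and Stab1 fell by 0.56 ± 0.18 (edgeR, adjusted p = 0.012). With library totals 2 of these 8 rose and 0 fell. Over the 32 libraries Maf was counted 101764 times and Gas6 52211 times, beside 4716 for Csf1r. Which cells of the muscle gave the Maf and Gas6 counts was not tested. At 28 days Gas6 alone was called, at 0.42 ± 0.11 (edgeR, adjusted p = 0.013), and 0 of the 8 with library totals. Of 10 genes of inflammatory monocytes only 3 reached the filter, and Nos2 fell by 0.89 ± 0.29 at 7 days (edgeR, adjusted p = 0.012) and by 0.91 ± 0.26 at 28 days (edgeR, adjusted p = 0.020). At 7 days 1 of the 3 lay above 0 and 2 below, so they did not fall as a set. From sham to SCI vehicle at 7 days Ccl2 went from 0.217 to 0.737 CPM and Ccr2 from 2.35 to 1.58 CPM, neither called. With library totals 1 of the 3 rose at 7 days and 0 fell. Ly6c2 was at 0 counts in 13 of 32 libraries, Tnf in 19 and Il1b in 19.

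Of 10 genes of lipid-laden, phagocytic macrophages 7 were measured, and at 7 days 1 rose and 1 fell. Lgals3, which encodes galectin-3 and is also made by other cells, rose from 2.33 ± 1.36 CPM in sham to 23.6 ± 14.3 in SCI vehicle at 7 days (log2 fold change 3.32 ± 0.49, edgeR, adjusted p = 1.6e-06). Cd9, a tetraspanin gene, fell by 0.74 ± 0.21 (edgeR, adjusted p = 0.0046), and the other 5 of 7 measured were not called. With library totals 2 rose and 0 fell. At 28 days Lgals3 stood at 5.02 ± 1.69 CPM against 1.41 ± 0.739 (1.81 ± 0.57, edgeR, adjusted p = 0.041). Gpnmb, a lysosomal membrane glycoprotein gene, rose at 28 days from 0.943 ± 0.363 to 3.06 ± 0.684 CPM (1.71 ± 0.37, edgeR, adjusted p = 0.0027). With library totals 1 of the 7 was called at 28 days in place of 2, beside 4.05% of all genes called higher under TMM.

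Cd68 protein is lysosomal, and lysosome genes were listed for comparison. Of 20, all measured, 10 rose and 2 fell at 7 days, with a median of 0.22, and 16 rose and 1 fell with library totals, a scaling under which 7107 of all 14955 genes were called higher. Under TMM 21.5% of all genes were called higher. Ctsl, which encodes cathepsin L, rose from 76.8 ± 2.48 to 211.2 ± 50.4 CPM (log2 fold change 1.46 ± 0.13, edgeR, adjusted p = 2.3e-10). Cd63, a tetraspanin of late endosomes, rose by 1.24 ± 0.20 (log2, edgeR, adjusted p = 5e-06). Ctsb, which encodes cathepsin B, fell by 0.64 ± 0.06 (edgeR, adjusted p = 1e-09) and Ctsa fell by 0.41 ± 0.06 (edgeR, adjusted p = 3.1e-06). Muscle fibres make these enzymes too, and the 20 genes summed to between 2596 and 3847 CPM over the 32 libraries. At 28 days Lamp2 alone rose (0.21 ± 0.06, edgeR, adjusted p = 0.026), and with library totals 0 of the 20 were called.

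Of 17 complement genes other than C1q, 15 were measured, and at 7 days 1 rose and 8 fell, with a median of −0.59, beside 23.1% of all genes called lower. The proteases that sit on C1q, C1s1 and C1ra, fell by 0.70 ± 0.14 (edgeR, adjusted p = 8.7e-05) and 0.48 ± 0.20 (edgeR, adjusted p = 0.048). C4b, the component cleaved by the protease that C1s1 encodes, went from 14.4 ± 5.58 to 5.96 ± 2.36 CPM (log2 fold change −1.29 ± 0.34, edgeR, adjusted p = 0.0026). Cd55, which encodes a surface inhibitor of complement, rose from 63.6 ± 10.5 to 106.6 ± 15.4 CPM (0.75 ± 0.13, edgeR, adjusted p = 2.7e-05). With library totals 1 rose and 3 fell. At 28 days Cd93 alone was called, and it fell by 0.92 ± 0.13 (edgeR, adjusted p = 1e-05).

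Among 8 ligands and recruiting signals, 7 were measured and 3 rose at 7 days: Cx3cl1 by 1.79 ± 0.41 (log2, edgeR, adjusted p = 0.00054), the monocyte chemokine gene Ccl7 (edgeR, adjusted p = 0.0081) and Hmox1, which encodes heme oxygenase, by 0.86 ± 0.28 (edgeR, adjusted p = 0.013). Ccl7 had 3 counts over the 4 sham libraries and 56 over the 6 SCI vehicle libraries, or 0.671 ± 0.517 CPM in the latter. Csf1 and Il34, the ligands of the receptor that Csf1r encodes, were not called at either day.

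Markers of other cell types were also called at 7 days, beside 21.5% of all genes called higher and 23.1% lower. Of 9 endothelial genes 7 fell and Cldn5 rose, with the summed level between 260.6 and 348.0 CPM in sham and between 180.5 and 241.7 in SCI vehicle. Of 8 fibro-adipogenic genes 6 fell (summed level between 555.1 and 1093 CPM in sham and between 386.2 and 717.1 in SCI vehicle), of 5 adipocyte genes 5 fell, of 7 Schwann cell genes 3 fell and of 4 mast cell genes 2 fell. Of 7 neutrophil genes 3 were measured, and Csf3r fell, while Ly6g was at 0 counts in 31 of 32 libraries. Of 8 lymphocyte genes 0 reached the filter, and Cd3d and Cd8a were each at 0 in 25 libraries. Of 5 muscle fibre genes 4 fell, and their sum lay between 81971 and 102455 CPM in sham and between 35893 and 67813 in SCI vehicle. Zbtb46, the 1 dendritic cell gene measured of 5, rose, and none of 5 erythrocyte genes was called. Zbtb46 was counted 3482 times over the 32 libraries and the other genes of its list between 51 and 175 times. Which cells gave the Zbtb46 counts was not tested. With library totals 2 endothelial, 3 fibro-adipogenic, 4 adipocyte and 3 Schwann cell genes fell, and no mast cell or neutrophil gene did. Their part in the values of the 9 genes was not tested.

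**Figure D5:**
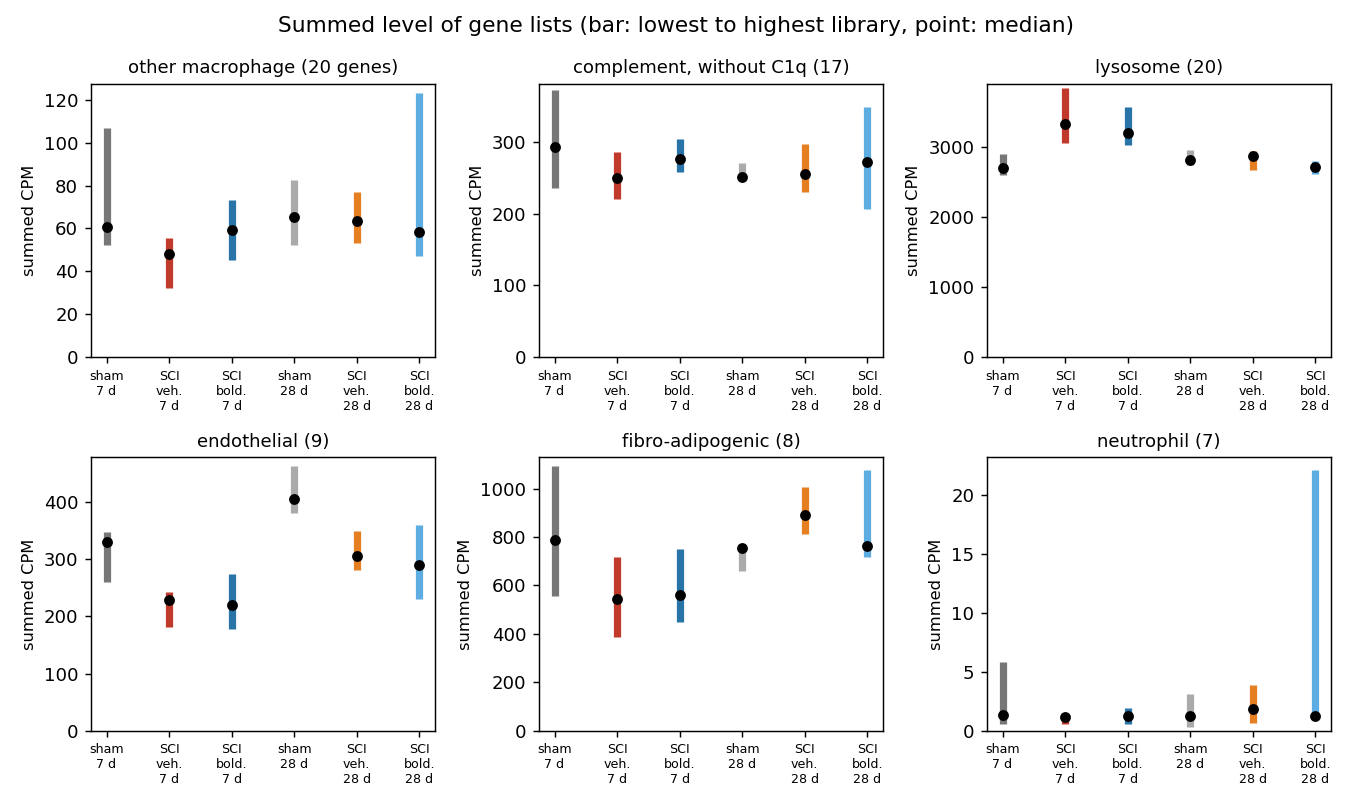
Summed CPM (vertical axes, starting at 0) of 6 gene lists in the 6 groups; the bar runs from the lowest to the highest library and the point is the median. The lysosome list is higher at 7 days in the injured groups (median 3327 CPM in SCI vehicle against 2706 in sham), the endothelial list is lower, and 1 boldine library at 28 days lifts the top of the macrophage and neutrophil bars.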

How the data were processed

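Messenger RNA of 32 gastrocnemius samples was sequenced from NEBNext Ultra libraries, per the labels' protocols. The deposited table holds raw read counts per Ensembl gene, whole numbers that the authors did not normalize; per the submitters' processing notes FastQC, Trim Galore, cutadapt, STAR and the mm10 build were used. The sources used here give no tool versions, counting step or strand setting. Symbols and coordinates came from GENCODE M21.

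Groups follow the time, surgery and treatment labels. filterByExpr of edgeR 4.0.16 (minimum count 10, minimum total 15) kept 14955 genes. TMM scaling and a quasi-likelihood model with 6 group means were fitted over all 32 libraries in R 4.3.3, with p-values two-sided and adjusted over all genes by Benjamini and Hochberg and a call at an adjusted p under 0.05. The SE was taken as the log2 fold change over the root of its F statistic. A second fit set each library to its Csf1r count. Correlations used log2 CPM (prior count 2) with group means removed and 100000 permutations within groups (Python 3.11.15). CPM values are scaled to the TMM-adjusted library size. Alternatives were library totals, DESeq2 1.42.0, limma voom 3.58.1, other count filters, fewer groups, a replicate block, a term for the library sets and leaving out each library.

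The members, the lists and the naming rule (every member, up to 3 list genes with the smallest p per comparison, and the 5 genes most like Cd68 and C1qa) were chosen with earlier results of these data known. List genes named beyond that rule, and the comparisons with neighbours of Cd68, were chosen after their values were seen. Nothing says how the samples of a group were kept apart in handling, so p-values reflect only how far these samples spread, which may be partly technical. Precision is limited by counts: a count of 0 in a library allows up to 3. The fitting steps were tested on simulated data. Same-numbered libraries deviated together no more than others, so the numbers do not pair samples. RefSeq promoter entries were found for 6 of the 9 members (not for Adgre1, Csf1r and C1qa).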

Additional observations from a re-analysis of the deposited data

Results flagged for a closer look

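Of 54 sets of values, a gene in a group, 6 held a library whose gap to its nearest neighbour was large for its group, where chance gives about 1 in 20. Boldine 28-day library 5 accounted for 5 of them, with 4.00 CPM of Adgre1 (next highest 1.30), 10.5 of C1qa (next 5.53), 8.62 of C1qb (next 5.14), 9.03 of C1qc (next 4.90) and 43.8 of Lyz2 (next 19.5). In that library the 20 other macrophage genes summed to 123.1 CPM, against 47.3 to 73.3 in the other 5 of its group, and the 7 neutrophil genes to 22.1 CPM against 0.988 to 1.77. Its endothelial sum was 359.2 CPM, against 229.9 to 304.5, while its Cd68 level of 2.15 CPM lay inside the range of its group. The sixth was sham 28-day library 2, whose 3.87 CPM of Cd163 lay below the other 3 (next lowest 5.40).

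The SCI effect on Cd68 differed between the days: the log2 difference, 28 minus 7 days, was −2.07 (edgeR, adjusted p = 0.019), with the limits given beside that result. Eif4a1, its neighbour, gave −1.30 (edgeR, adjusted p = 3.3e-06).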

How the results depend on the processing

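Against sham, the rise of Cd68 at 7 days in SCI vehicle and in SCI boldine kept its direction and its side of the threshold under each alternative scaling, test, filter, design and left-out library. With the replicate number as a block, which does not pair these samples (same-numbered libraries correlated between −0.21 and 0.26, and 8 of 56 matched their own number best), 3 members were called in SCI vehicle against sham at 7 days in place of 1, Cd68 higher and C1qc and Csf1r lower; the block changed no other count of members. How many of all genes were called with the block was not counted. With library totals 4 members were called in SCI boldine against sham at 7 days in place of 1, where 7787 of 14955 genes were called higher and 1187 lower. By limma voom 0 were called in the difference of the SCI effect between days in place of 1. Set to Adgre1 in place of Csf1r, 0 members were called at 7 days and Cd68 stood at 1.47. Set to Eif4a1, which itself rose by a similar factor, Cd68 stood at 0.22. The count of correlated pairs was 10 with 7-day and 6 with 28-day libraries only, in place of 21. The causes were not tested, save that fewer libraries entered the last.

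Of 358 gene values under alternatives other than leaving out a library, 19 changed sign, none of them called. For SCI vehicle at 7 days, library totals gave Adgre1 0.35, Csf1r 0.12, Cd163 0.18, C1qa 0.18 and C1qb 0.00092, and Adgre1 stood at 0.023 with the replicate block and 0.0093 by limma voom. At 28 days C1qb stood at 0.00039 with only the groups compared and 0.0014 by DESeq2. For boldine at 28 days the term for library sets gave Cd68 −0.26 and Mrc1 −0.29, and no low count filter gave Mrc1 −0.0017. Against other references at 7 days, Adgre1 gave Mrc1 −0.11, Cd163 −0.63 and C1qa −0.61, and Laptm5 gave C1qb 0.34 and Lyz2 0.35; at 28 days Cd68 stood at 0.40 against Adgre1 and 0.14 against C1qa.

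Leaving out each library in turn, members called ran from 1 to 2 in SCI boldine against sham at 7 days, from 0 to 1 in the difference of the SCI effect between days, from 1 to 2 relative to Csf1r at 7 days and from 0 to 1 at 28 days. The share of all genes called in each of these fits was not counted. Uncalled values that changed sign ran, for SCI vehicle at 7 days, from −0.33 to 0.40 (Adgre1) and −0.038 to 0.52 (Mrc1), and at 28 days from −0.63 to 0.14 (Cd68), −0.12 to 0.22 (C1qb) and −0.19 to 0.15 (Lyz2). For boldine they ran from −0.028 to 0.34 (Cd68, 7 days), and at 28 days from −0.068 to 0.29 (Cd68), −0.11 to 0.78 (Adgre1), −0.10 to 0.046 (Csf1r), −0.13 to 0.11 (Mrc1), −0.014 to 0.22 (Cd163) and −0.071 to 0.43 (Lyz2). Relative to Csf1r at 7 days they ran from −0.0013 to 0.67 (Adgre1), −0.046 to 0.14 (Cd163), −0.051 to 0.22 (C1qa), −0.30 to 0.11 (C1qb) and −0.23 to 0.021 (Lyz2), and at 28 days from −0.45 to 0.33 (Cd68).

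Depth limits Cd68 and Adgre1 most: some libraries held 5 counts of Cd68 and 2 of Adgre1, so moderate changes of these genes would not be detectable.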
